A study of Mus musculus with 3 samples.

Results

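The 5p arms of the miR-181 family, mmu-miR-181a-5p, mmu-miR-181b-5p, mmu-miR-181c-5p and mmu-miR-181d-5p (the prefix mmu stands for mouse), were followed in mouse plasma after aerobic exercise, after resistance exercise and in caged controls. They were chosen by name and account for 4 of the 1900 miRNA probes on the array. All animals were male C57BL/6 mice, a common inbred strain, 8 weeks old and fasted overnight. The aerobic group had performed an acute bout of aerobic exercise, the resistance group an acute bout of resistance exercise, and the control group had stayed in normal cages. Plasma was prepared 3 h after the bout, and 100 µl from each of 3 mice of a group was combined, so each group is 1 pool on 1 single-colour array. With no replicates, nothing below was tested for significance. The sources used here do not describe the exercise protocols.

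miRNAs are short RNAs that guide repression of messenger RNAs, and they choose their targets mainly through the seed near their 5′ end. In mice miR-181a is abundant in developing thymocytes, where it tunes the strength of T cell receptor signalling by repressing phosphatases, and miR-181 is also known in brain and in differentiating myoblasts. miR-181b is known to dampen NF-κB signalling in endothelium, and in rat heart cells miR-181c acts on a mitochondrial transcript. In plasma such miRNAs come from blood cells and other tissues, and an array of plasma cannot tell these sources apart, nor more releasing cells from more RNA released per cell.

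The 4 mature sequences, from RefSeq on GRCm38.p6, are shown because the family is defined by a shared seed and the probes have to tell apart RNAs that differ by few bases. Capitals mark the seed, bases 2 to 8, and each is written 5′ to 3′.
miR-181a-5p: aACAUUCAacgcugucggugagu
miR-181b-5p: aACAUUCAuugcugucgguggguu
miR-181c-5p: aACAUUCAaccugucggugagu
miR-181d-5p: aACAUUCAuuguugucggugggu

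All members carry the same seed, and 0 other miRNAs of the array had it among the 1623 names for which a sequence was at hand, out of 1915 names. The members fall into 2 closely matched pairs. miR-181c-5p is miR-181a-5p with 1 base missing, and the first 10 bases of both are identical. miR-181d-5p differs from miR-181b-5p by the substitution C12U, counted from 1 at the 5′ end of miR-181b-5p, and lacks its last base. Between the pairs more bases differ: from miR-181a-5p to miR-181b-5p the substitutions are A9U, C10U and A21G, counted from the 5′ end of miR-181a-5p, and miR-181b-5p has 1 base more. How far each probe also binds the other members was not tested.

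In the genome the family sits in 3 pairs of hairpins (GRCm38.p6). Mir181a-1 (chr1:137966455-137966541) and Mir181b-1 (chr1:137966639-137966718) lie 97 bp apart on the plus strand, and no other gene of the annotation overlaps them. Mir181a-2 (chr2:38852735-38852810) and Mir181b-2 (chr2:38853830-38853918) lie within Nr6a1, a protein-coding gene for an orphan nuclear receptor, and within its antisense RNA gene Nr6a1os. Mir181c (chr8:84178873-84178961) and Mir181d (chr8:84178716-84178787) lie 85 bp apart on the minus strand, again with no overlapping gene. miR-181a-5p and miR-181b-5p are each made from 2 of these loci with the same mature sequence, so their values do not say which locus was active.

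The arrays had similar blank means but differed in the spread of the blanks and in their spots without a probe. The mean of the trimmed blank spots, known only by that name, was 92.9 on the aerobic, 93.3 on the resistance and 92.0 on the control array. Their SDs were 3.05, 1.85 and 1.41 in the same order. A probe counted as detected above that mean by more than 2 SD, which 1364, 1372 and 1431 of the miRNA probes did. Spots named No Probe, here called spots without a probe, are not described further in the sources used here. They passed the same threshold in 7 of 174 cases on the aerobic and 35 of 174 on the resistance array. On the control array 137 of 174 (78.7%) passed, so a bare pass there says little. The median of these spots was 91.0, 94.1 and 96.3 in the same order. Red cell and platelet miRNAs of plasma were detected on every array, 4 of 4 probes on each list, and so were 3 of 7 probes on the muscle list, miR-1a-3p, miR-133a-3p and miR-133b-3p.

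miR-181a-5p was the member with a clear signal in plasma. Its raw intensity was 194.3 in the aerobic pool, 177.0 in the resistance pool and 158.2 in the control pool. That placed it 33.2, 45.3 and 47.0 blank SDs above background in the same order, and above all 174 spots without a probe on each array. Both exercise pools were brighter than the caged pool in raw intensity, with the aerobic pool brightest.

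miR-181b-5p was dimmer but measurable. Its raw intensity was 117.6 in the aerobic, 113.8 in the resistance and 106.7 in the control pool. It stood 8.10, 11.1 and 10.4 blank SDs above background in that order, so at a stricter threshold of 10 SD it was detected on the resistance and control arrays and missed on the aerobic one. It exceeded 172, 172 and 171 of the 174 spots without a probe. The order of the pools was the same as for miR-181a-5p, with which it shares both of its hairpin pairs.

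miR-181d-5p was near background. Its raw intensity was 110.6 in the aerobic, 101.0 in the resistance and 102.5 in the control pool, or 5.79, 4.19 and 7.45 blank SDs above background. The aerobic pool was the bright one here, and the resistance and control pools lay within 2 units of raw intensity of each other. The probe exceeded 172, 169 and 168 of the 174 spots without a probe.

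miR-181c-5p was at the limit of detection. Its raw intensity was 98.0 in the aerobic pool, where it was not detected, 99.8 in the resistance pool and 95.2 in the control pool. The control spot counted as detected at 2.30 blank SDs, yet only 50 of the 174 spots without a probe on that array were dimmer. The undetected aerobic spot, at 1.67 blank SDs, was brighter than 163 of the 174 such spots on its own array. When the widest of the 3 blank SDs set the threshold for each array, the control spot was no longer detected. The levels of this member give no order of the pools.

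**Figure D1:**
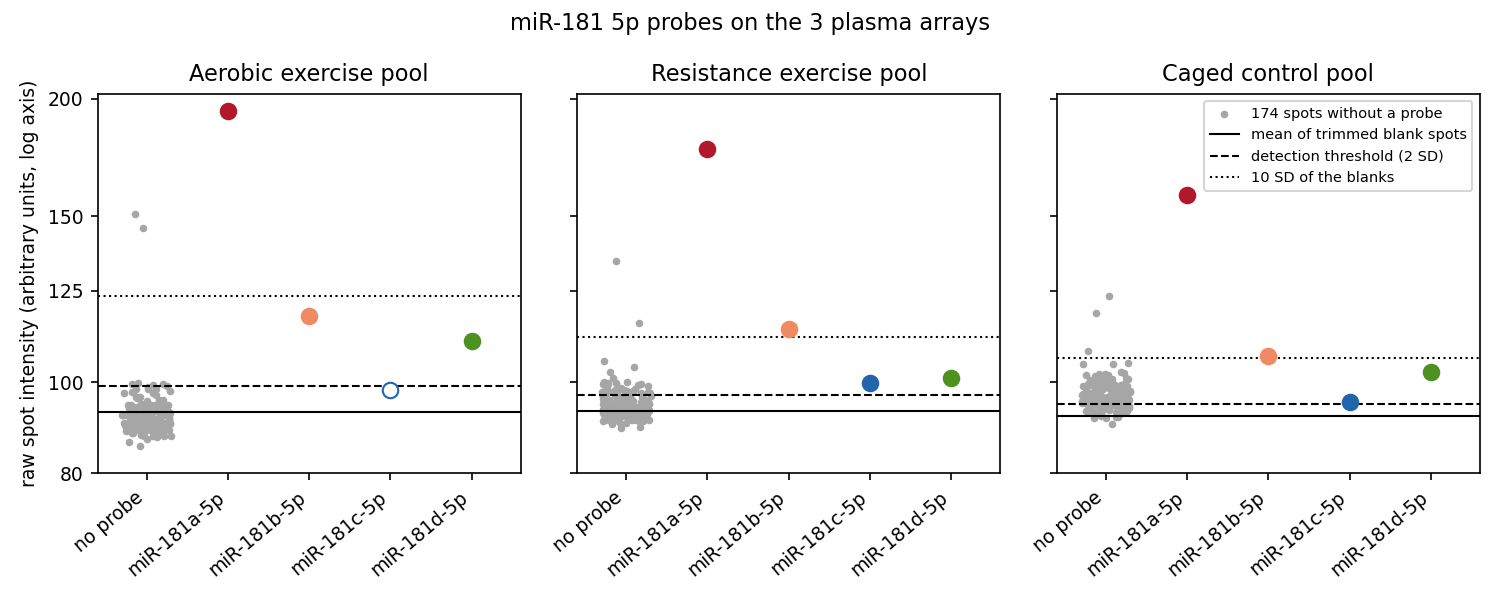
Raw spot intensity (log axis) of the 4 miR-181 5p probes on the aerobic, resistance and control arrays, beside the 174 spots without a probe in grey; a filled circle is a detected probe, an open one a probe not detected, and the lines are the blank mean, the 2 SD detection threshold and 10 SD of the blanks. miR-181a-5p stands above every grey spot on each array, and miR-181c-5p lies among the grey spots of the control array.

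Differences between pools were taken on normalized log2 intensities, in which the 3 arrays share 1 distribution of values and an offset of 50 steadies dim probes. The offset pulls differences of dim probes towards 0. The only error at hand is technical: 2 SD of the difference between repeated spike-in spots was 0.32 on the log2 scale, and repeated spots of Negative Control 1 gave 0.85. The spike-in spots are far brighter than the members. Dim repeated spots gave 0.19 for the S-Probes and 0.20 for Negative Control 2 and 3, and under this normalization every difference of a compared member lies within these limits too. None covers differences between mice, pools or hybridizations.

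After aerobic exercise the detected members were slightly brighter than in caged controls. miR-181a-5p had a log2 intensity of 7.18 in aerobic and 7.04 in control plasma, a difference of 0.14 or 1.10-fold. miR-181b-5p was at 6.28 in aerobic and 6.21 in control plasma, a difference of 0.07. miR-181d-5p was at 6.16 and 6.10 in the same pools, a difference of 0.06. All 3 members compared were on the bright side, with a median of 0.07, but none left the spread of the spike-in spots.

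Over all 1321 miRNAs compared between the aerobic and control pools the median difference was 0.00, and 48.6% were brighter in the aerobic pool. The difference of miR-181a-5p lay above that of 88.0% of these miRNAs, and that of miR-181b-5p above 74.9%. Of the 3 members 0 were higher and 0 lower by more than 2 SD of the spike-in scatter, against 3.79% and 2.04% of all miRNAs. The count at 2-fold or more was likewise 0 of 3, where 0.0% of all miRNAs were 2-fold higher and 0.227% 2-fold lower. miR-181c-5p was detected on the control array alone, and since its value lay under the detection floor of the aerobic array no bound on a fold can be given.

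After resistance exercise the picture for the first 2 members was close to that after aerobic exercise. miR-181a-5p had a log2 intensity of 7.17 in resistance and 7.04 in control plasma, a difference of 0.13 or 1.10-fold. miR-181b-5p was at 6.31 in resistance and 6.21 in control plasma, a difference of 0.10. miR-181c-5p was brighter by 0.09 and miR-181d-5p dimmer by a log2 difference of -0.05. Thus 3 of 4 members were on the bright side, with a median of 0.09, and all 4 stayed within the spike-in scatter. Both the count and the median include miR-181c-5p, whose control spot was at the limit of detection, so its side is not settled.

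Over the 1336 miRNAs compared between the resistance and control pools the median was -0.01, and 44.2% were brighter in the resistance pool. The difference of miR-181a-5p exceeded that of 87.7% of them, and that of miR-181b-5p exceeded 82.7%. Of the 4 members 0 were higher and 0 lower by more than 2 SD of the spike-in scatter, against 5.54% and 3.22% of all miRNAs. At 2-fold or more there were again 0 of 4 members, where 0.225% of all miRNAs were higher and 0.0749% lower. Among miRNAs with a number under 1000, a grouping chosen after the data had been seen, the median difference was 0.01 for aerobic and 0.02 for resistance plasma against control. In that grouping, which holds the members, 56.3% were brighter than control in aerobic and 58.2% in resistance plasma. Both comparisons share the control array, so a dim or bright control spot moves them together.

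The size of the differences of the dim members depended on how background was treated. For miR-181c-5p the authors' normalized values gave a log2 difference of 0.92 between resistance and control plasma, and subtraction of the blank mean alone gave 1.03, against 0.09 here. That ratio rests on the control spot of raw intensity 95.2. For miR-181d-5p the authors' values gave -0.53 in the same comparison, against -0.05 here. For miR-181a-5p, which is well above background, they gave 0.14 for aerobic and 0.25 for resistance plasma against control. Its difference from control kept its sign under all 8 alternatives. It ran from 0.14 to 0.39 for aerobic and from 0.13 to 0.25 for resistance plasma. The alternatives that change only the detection rule leave its value as it is, so they could not differ. The 0.39 was without scaling between arrays, where the median of all miRNAs was itself 0.20.

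Between the exercise modes miR-181a-5p differed by less than spot scatter. Its log2 intensity was 7.17 in resistance and 7.18 in aerobic plasma, a difference of 0.00. Without scaling between arrays the difference was -0.19, but the median of all miRNAs then moved to the same value of -0.19, so the probe moved with the array as a whole. miR-181b-5p stood at 0.03, and at -0.11 without scaling, so its direction depends on the scaling. miR-181d-5p was dimmer in the resistance pool, with a log2 difference of -0.12, and in the authors' values of -0.81.

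For miR-181c-5p, detected on the resistance array and not on the aerobic one, the bound of 1.05-fold in favour of resistance plasma gives no order, since the raw spots were 99.8 in resistance and 98.0 in aerobic plasma and exceeded 164 and 163 of the 174 spots without a probe. The 3 members detected on both arrays had a median of 0.00, against -0.01 over all 1307 miRNAs. Of these 3 members 0 were higher and 0 lower by more than 2 SD of the spike-in scatter, where 1.91% and 1.3% of all miRNAs were. At 2-fold or more the count was 0 of 3, with 0.153% of all miRNAs higher and 0.0% lower.

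**Figure D2:**
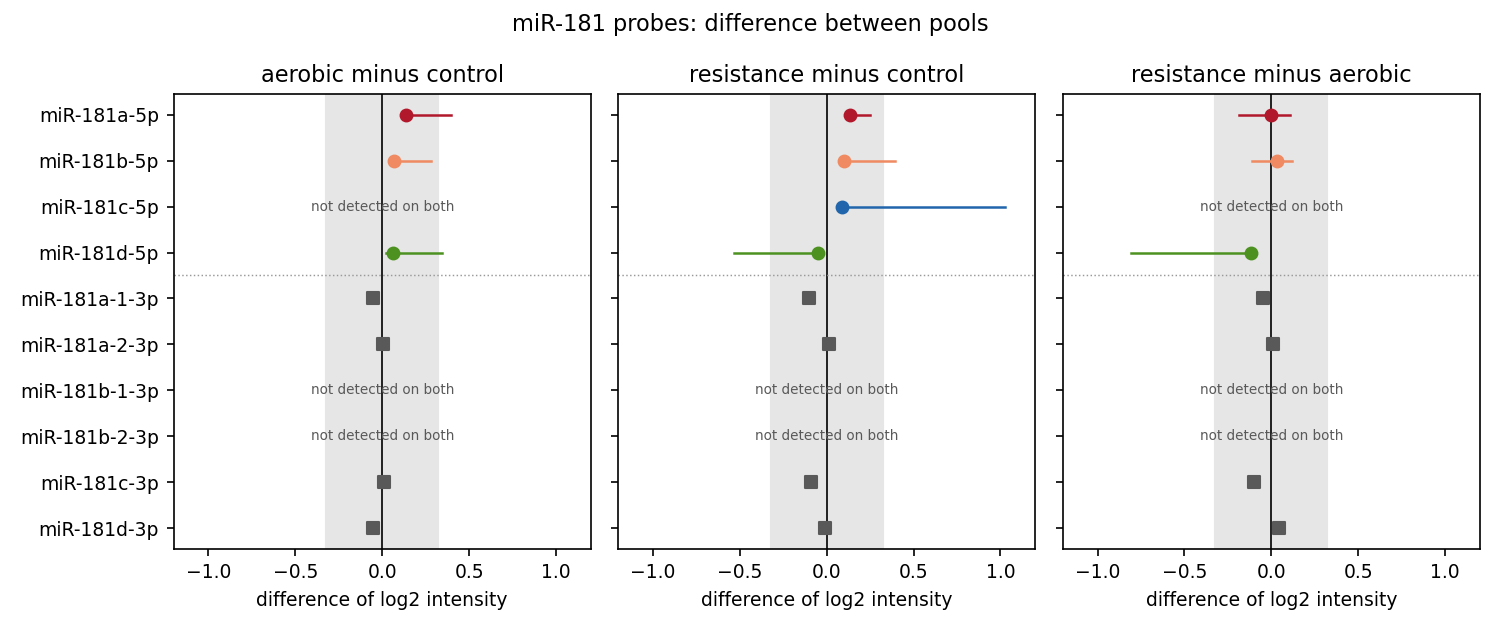
Difference of normalized log2 intensity between pools (horizontal axis) for the 4 miR-181 5p probes (circles) and the 6 miR-181 3p probes (squares); lines span the values under the alternative settings for the 5p probes, and the grey band is 2 SD of spike-in spot scatter, 0.32 either way. Every circle and square lies inside the band, while lines of all 4 members reach outside it, those of miR-181c-5p and miR-181d-5p farthest.

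In raw units above each array's blank mean, before any scaling, miR-181a-5p was brighter by 35.2 in the aerobic and by 17.5 in the resistance pool than in the control pool. Repeated spots of dim S-Probes, control probes the sources used here do not describe, differed by up to 10.2 units at 2 SD, and repeated spots of Negative Control 1 by up to 38.3 units, which holds both values of miR-181a-5p. Both kinds of control spot were dimmer than miR-181a-5p. miR-181b-5p, with 10.0 and 5.85 units above control, lay inside either spread. Its aerobic value was beyond the 8.86 units that repeated spots of Negative Control 2 and 3 gave at 2 SD. miR-181d-5p, at 7.17 and -2.76 units, and miR-181c-5p, at 1.87 and 3.28 units, lay inside all of these spreads. These placings hold for the blank mean as background. The median of the spots without a probe was 91.0 on the aerobic, 94.1 on the resistance and 96.3 on the control array. Differences above that median were not taken, and against it both exercise arrays would stand higher relative to control. Without scaling, however, the median of all miRNAs was higher by 0.20 on the aerobic than on the control array on the log2 scale.

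The opposite arms of the same hairpins, the 3p arms, usually the less abundant strand in this family, were dim or not detected. Of 6 probes 4 were detected on every array and 0 reached 10 SD of the blanks on any. miR-181b-1-3p and miR-181b-2-3p, from the hairpins of miR-181b-5p, were detected on none. miR-181a-1-3p had a raw intensity of 105.7 in the aerobic, 100.1 in the resistance and 103.4 in the control pool, and miR-181a-2-3p had 109.3, 105.6 and 104.2. miR-181c-3p had 111.9, 102.5 and 105.7 in the same order, and miR-181d-3p had 102.0, 100.9 and 100.3.

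The 3p arms did not all follow their 5p partners in the direction of these small differences. Relative to control their median was -0.02 in aerobic plasma, with 2 of 4 brighter, and -0.05 in resistance plasma, with 1 of 4 brighter. miR-181a-1-3p stood at -0.05 in aerobic and -0.10 in resistance plasma, where miR-181a-5p stood at 0.14 and 0.13. Of the 4 probes compared, 0 left the spike-in scatter in any of the 3 comparisons under this normalization. Of all miRNAs, 94.2% in aerobic and 91.2% in resistance plasma against control lay within it, and 96.8% between the exercise modes. The authors' values of resistance against control were -0.84 for miR-181a-1-3p and -0.66 for miR-181c-3p, beyond 0.32. They were -0.08 for miR-181a-2-3p and -0.21 for miR-181d-3p.

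**Figure D3:**
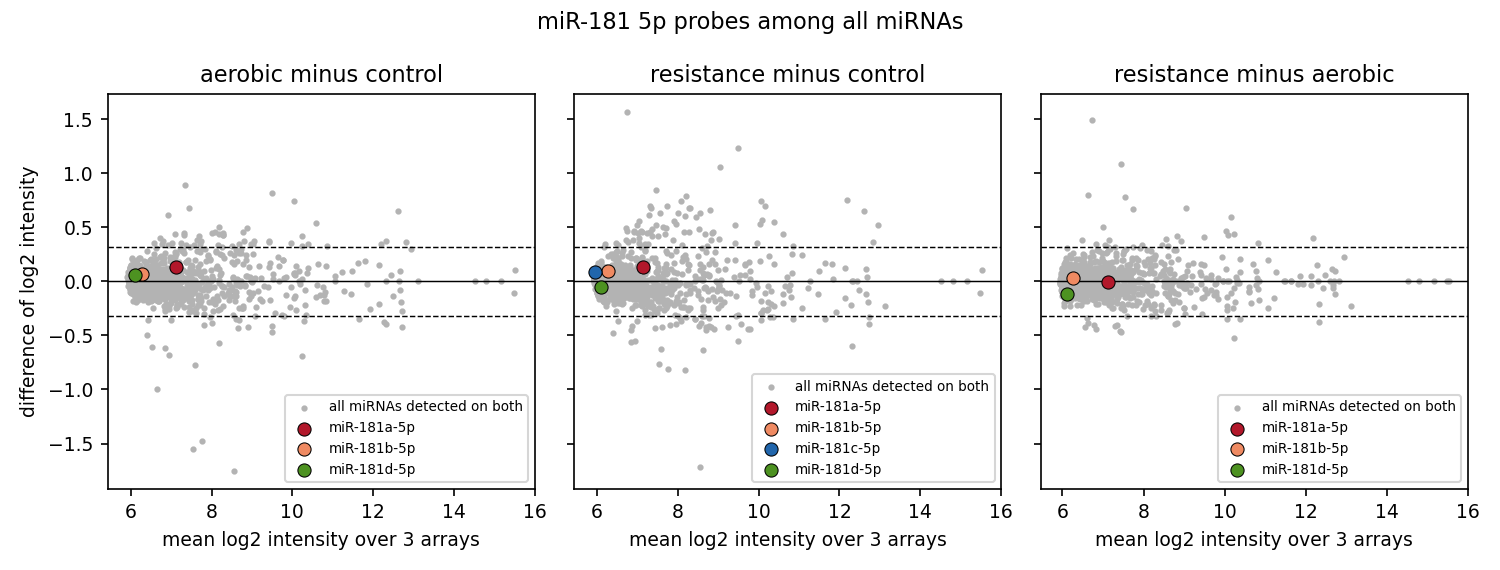
Difference of log2 intensity between pools (vertical axis) against the mean log2 intensity over the 3 arrays for all miRNAs detected on both arrays (grey), with the miR-181 5p probes in colour; dashed lines are 2 SD of spike-in spot scatter. The members lie inside the cloud of other miRNAs of their brightness, between the dashed lines.

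The pattern over the 3 pools was compared among the 1296 miRNAs detected on all arrays, by the Euclidean distance of their mean-centred log2 intensities. Nearest to miR-181a-5p were miR-8114, miR-5621-3p and miR-1936, each within a distance of 0.013. Nearest to miR-181b-5p were miR-18a-5p, miR-363-5p and miR-7679-5p, and nearest to miR-181d-5p were miR-7228-3p, miR-6943-3p and miR-7673-3p. Members were not each other's closest match: miR-181b-5p ranked 55th and miR-181d-5p 531st by distance from miR-181a-5p. With 3 arrays and differences this small, many miRNAs have almost the same pattern.

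miRNAs of the cell types in which the family is known were set beside it. Leukocyte miRNAs were present, with 5 of 6 probes detected in the aerobic, 6 in the resistance and 5 in the control pool, and a summed raw intensity above the blank mean, with no scaling between arrays, of 791.6, 705.1 and 600.0 in that order. After normalization the median of resistance minus aerobic was 0.12. Among them lymphocyte miR-150-5p was brighter than control by 0.13 in aerobic and 0.34 in resistance plasma, while myeloid miR-223-3p stood at 0.01 and -0.06. Inflammation-linked miR-146a-5p stood at -0.16 and 0.11. The list median was 0.13 in both comparisons, with 4 of 5 compared probes brighter. Beyond the spike-in scatter were 0 in aerobic and 1, miR-150-5p, in resistance plasma. Of all miRNAs 3.79% and 5.54% were brighter by that much, and 2.04% and 3.22% dimmer. The part of leukocyte RNA in the miR-181 values was not tested.

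Red cell miRNAs differed more. All 4 probes were brighter than control in both exercise pools, with medians of 0.37 in aerobic and 0.62 in resistance plasma. In aerobic plasma 3 of them and in resistance plasma 4 were brighter by more than the spike-in scatter, against 3.79% and 5.54% of all miRNAs. The summed raw intensity of the red cell probes above the blank mean, with no scaling, was 7005 in the aerobic, 6496 in the resistance and 3628 in the control pool. After normalization all 4 were brighter in resistance than in aerobic plasma, with a median of 0.29. On the platelet list 4 of 4 probes were brighter than control in aerobic and 3 of 4 in resistance plasma, with medians of 0.17 and 0.52. Those brighter by more than the spike-in scatter were 0 in aerobic and 3 in resistance plasma, against the same 3.79% and 5.54% of all miRNAs. The platelet probe not brighter in resistance plasma was miR-223-3p, which is also on the leukocyte list. The liver list held 1 probe, miR-122-5p, brighter than control by 0.68 in aerobic and 0.22 in resistance plasma. The aerobic value was beyond the spike-in scatter and the resistance value was not. Resistance minus aerobic was -0.46, also beyond it, where 1.3% of all miRNAs were lower by that much. The part of red cell, platelet or liver RNA in the miR-181 values was not tested.

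Muscle miRNAs lay on the other side of control from miR-181a-5p, and most brain miRNAs were not detected. All 3 muscle probes compared were dimmer in aerobic than in control plasma, with a median of -1.48, and all 4 compared were dimmer in resistance plasma, with a median of -0.48. These medians rest on different probes, since miR-206-3p, at -0.06 in resistance plasma, was not detected in the aerobic pool. In resistance plasma miR-1a-3p, miR-133a-3p and miR-133b-3p stood at -0.20, -0.77 and -0.81, and in aerobic plasma at -0.99, -1.55 and -1.48. The other members of that list, miR-499-5p, miR-208b-3p and miR-208a-3p, passed the detection threshold on no array. The summed raw intensity of the 7 muscle probes above the blank mean, in which a probe under that mean adds 0, was 165.3 in the aerobic, 316.4 in the resistance and 596.2 in the control pool. Of 5 brain probes 2 were detected on each array, 1 of them, miR-124-3p, above 10 SD on the control array at a raw intensity of 110.5. miR-124-3p, a neuronal miRNA, stood at -0.17 and -0.09 against control, and miR-128-3p, enriched in neurons, at 0.06 in aerobic and -0.04 in resistance plasma. miR-9-5p, miR-137-3p and miR-219a-5p were detected on no array.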

How the data were processed

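Per the labels' protocols, a miRNeasy kit was used to extract RNA and Cy5 to label it. The extraction label speaks of cells, and plasma, named by the other labels, was taken as the source. The deposited files hold raw intensity for 3200 spots per array, with 1 spot for each miRNA probe, and the authors' background-subtracted and globally normalized intensity, whose median is 25. The authors' value table of the series repeats the normalized intensity to within 0.05. The series text calls the chip a human one, while the probes carry mouse names.

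Here blanks were trimmed by 5% at each end, which left 806 of 896. Raw intensity was corrected with normexp in limma 3.58.1 (R 4.3.3), with an offset of 50, and the miRNA probes were quantile normalized. Detection at 2 SD gave 0 differences from the authors' empty cells. Simulated data were also used to check the processing steps. No outcome of that check is given here, and no statement on the members or on differences this small rests on it. The members, marker lists and detection rule were chosen with earlier results of these data known. Named besides the members are their 3p arms, the marker lists and the 3 nearest patterns per member. Alternatives were other offsets, background corrections, scalings and detection rules, and the authors' values. For arrays, their number limits the precision.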

Additional observations from a re-analysis of the deposited data

Results flagged for a closer look

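With 1 pool per group, these probes were detected on all arrays and stood on opposite sides of control in the aerobic and resistance pools, and the difference between the pools was not tested. miR-181d-5p stood at 0.06 in aerobic and -0.05 in resistance plasma, so resistance minus aerobic was -0.12, and for miR-181c-3p it was -0.10. For the leukocyte miRNAs miR-146a-5p and miR-223-3p it was 0.27 and -0.075, and for miR-128-3p -0.094. All lie within the 0.32 given by 2 SD of spike-in spot scatter, and all but that of miR-146a-5p within the 0.19 given by the dim S-Probe spots. Such a split is not particular to these probes. Among the nearest patterns of miR-181d-5p, miR-7228-3p stood at 0.07 and -0.05 and miR-6943-3p at 0.06 and -0.06. The share of all miRNAs that split this way was not counted.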

How the results depend on the processing

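The family median of aerobic against control plasma, 0.07, was positive under every alternative run, all of which reuse the same arrays. At 10 SD it is the value of miR-181a-5p alone. It was 0.27 with the blank mean subtracted, 0.25 without scaling between arrays and 0.28 in the authors' values. Without scaling the median of all miRNAs was itself 0.20. The family median of resistance against control, 0.09, was also positive throughout, at 0.31 with the blank mean subtracted and 0.32 in the authors' values. Except at 10 SD it includes miR-181c-5p, which is at the limit of detection. The family median of resistance against aerobic plasma was -0.19 without scaling, as was that of all miRNAs. In the authors' values it was 0.11 and without a detection filter 0.01, so its sign is not settled. No member reached 2-fold in any comparison or setting, except 1, miR-181c-5p, in resistance against control with the blank mean subtracted. Among the 1336 miRNAs compared there, 18 were brighter in resistance plasma by a factor of 2 or more and 13 dimmer by as much. In the authors' values the counts for that comparison were 15 brighter and 24 dimmer. At 10 SD 1 member was detected in the aerobic, 2 in the resistance and 2 in the control pool. Of 74 values of single members under the alternatives, 18 moved by more than 1 SD of spike-in scatter, 0.16, and 2 changed sign, both between the exercise modes. The 74 include settings that change only the detection rule, which cannot move the value of a single member. Dim signal limits miR-181c-5p and miR-181d-5p most. No paired analysis was possible because each group has 1 array, and for the same reason no replicate could be left out.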
